A study of Mus musculus with 48 samples.

Results

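Trnp1, Serinc2, Kif17, Sh2d5, Bok, Prss23, Lgals1 and Mylk are 8 of the 24421 genes of a count table from the hippocampal Cornu Ammonis of 48 mice. They were chosen from measured values of the basal libraries, as genes among the strongest effects of the CB1 deletion in the GABA-CB1 line or among the strongest basal differences between the lines. Their basal differences are therefore given as a description with no test. Tests are given on the 24 libraries of mice taken after the open field. Their values are not among those named for the choice, though earlier results of these data were known when it was made.

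Each library is 1 male mouse, labelled as 8 weeks old, and the Cornu Ammonis was dissected after the dentate gyrus had been removed. In the GABA-CB1 line, mice with a floxed CB1 gene (CB1f/f) were crossed with mice carrying Cre under the regulatory elements of dlx5/6, for deletion in GABAergic neurons. In the Glu-CB1 line, Cre was driven by the elements of nex1, for deletion in glutamatergic neurons of the dorsal telencephalon. KO and CB1-WT littermates carry the same strain label within a line, so the groups are told apart by the genotype label. The basal state is the home cage, and the open field state followed 5 min of undisturbed exploration of a white box. The study states that the tissue was taken 1 h after this exposure. The 8 groups were GABA-CB1-WT basal (n = 6), GABA-CB1-KO basal (n = 6), GABA-CB1-WT open field (n = 7), GABA-CB1-KO open field (n = 5), Glu-CB1-WT basal (n = 5), Glu-CB1-KO basal (n = 7), Glu-CB1-WT open field (n = 5) and Glu-CB1-KO open field (n = 7). These sizes follow the labels, and the study's text gives those of the GABA-CB1 open field groups the other way round. CB1 stays in all cells that the Cre driver does not reach, and the tissue was measured in bulk, so fewer cells of a type and less RNA per cell cannot be told apart.

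CB1 is a presynaptic receptor coupled to inhibitory G proteins, and endocannabinoids released by the postsynaptic cell act on it to lower transmitter release. In the hippocampus its level is highest in a class of GABAergic interneurons, and glutamatergic terminals carry less of it. The 8 genes do not form a single pathway. Trnp1 is a nuclear protein known from neural progenitors, Serinc2 is a membrane protein of the serine incorporator family, and Kif17 is a dendritic kinesin that carries vesicles with NMDA receptor subunits. Sh2d5 is an SH2 domain adaptor that binds the Rac regulator BCR, and Bok is a BCL2 family protein that binds IP3 receptors. Prss23 is a secreted serine protease, Lgals1 is the sugar-binding galectin-1, and Mylk is the calmodulin-dependent kinase of myosin light chains.

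Between 25892654 and 34091080 reads were counted on genes per library, and the 8 genes had between 119 (the lowest library for Serinc2) and 4991 counts (the highest library for Trnp1). Levels are counts per 1000000 counts of a library (CPM), scaled by the trimmed mean of M values (TMM) over the 48 libraries. Cnr1, which encodes CB1, separated KO from CB1-WT in all 4 pairs of groups, for example 141 to 159 CPM against 310 to 391 CPM in the basal GABA-CB1 line and 101 to 156 CPM against 337 to 393 CPM after the open field. The summed level of 10 CA1 pyramidal markers was between 1069 and 1540 CPM and that of 10 dentate granule cell markers between 175 and 444 CPM, with no marker of either list at 0 in any library. In GABA-CB1-KO open field replicate 1, 10.2% of genes had the highest or the lowest level of the 48 libraries, and in replicate 4 of the same group 18.2%, where an even spread over libraries would give 4.17%. Glu-CB1-KO open field replicates 5 (12.0%) and 6 (10.3%) also stood above replicate 1 by this share, and neither was the highest library for any of the 8 genes. The median of the 47 libraries other than replicate 1 was 3.31%. Replicate 1 is the library in which 5 of the 8 genes had their highest level, so results that rest on it are given with and without it. The library was thus singled out by the levels of the genes under test, and calls made without it are no independent test.

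Per kilobase of exon, the mean over 48 libraries was 66.7 CPM for Trnp1, 32.8 CPM for Bok, 22.1 CPM for Sh2d5 and 11.1 CPM for Lgals1. It was 7.30 CPM for Prss23, 6.24 CPM for Kif17, 4.33 CPM for Serinc2 and 4.09 CPM for Mylk. On this scale, Trnp1 was the most abundant of the 8. In the coordinates of the deposited table (mm10), 4 of the 8 genes lie on chromosome 4, within 8.05 Mb of each other. This chromosome holds 6.18% of the tested genes. Serinc2 is at chr4:130253497-130275586 on the minus strand, Trnp1 at chr4:133491100-133498550 on the minus strand, Sh2d5 at chr4:138250411-138260968 on the plus strand and Kif17 at chr4:138262251-138301973 on the plus strand. Kif17 starts 1283 bases after the end of Sh2d5. Cnr1 is on the same chromosome, at chr4:33924632-33948831. Its start coordinate lies 96328865 bases from that of Serinc2 and 104337619 bases from that of Kif17. Bok is at chr1:93685694-93695762, Prss23 at chr7:89507785-89517586, Lgals1 at chr15:78926725-78930465 and Mylk at chr16:34784950-35002434. All 8 are annotated as protein-coding genes by GENCODE. The span of Mylk holds the genes 1700119H24Rik and E130310I04Rik on the opposite strand, and the amplification kit does not keep the strand, so reads of these genes and of Mylk cannot be told apart where their exons overlap. No other gene of the table overlaps the remaining 7.

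The 250 bases before the start are printed for the chromosome 4 genes with an entry in the RefSeq promoter table (GRCm38.p6, the patched mm10 assembly) and for Prss23, since Trnp1 and Prss23 were called for the line difference after the open field when GABA-CB1-KO replicate 1 was left out, as described further on; with all libraries none was. An entry was found for 6 of the 8 genes, and Sh2d5 and Lgals1 have none. Each is read 5′ to 3′ on the strand of its gene. Capitals mark the searched letters on either strand, and adjoining or overlapping matches run together. The 5 searched motifs are spelled out after the sequences.
Trnp1 (chr4:133498551-133498800, minus strand): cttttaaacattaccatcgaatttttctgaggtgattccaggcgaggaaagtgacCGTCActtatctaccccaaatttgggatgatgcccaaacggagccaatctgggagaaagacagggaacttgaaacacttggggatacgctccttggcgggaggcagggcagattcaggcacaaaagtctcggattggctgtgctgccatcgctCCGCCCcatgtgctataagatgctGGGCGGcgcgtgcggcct
Serinc2 (chr4:130275587-130275836, minus strand): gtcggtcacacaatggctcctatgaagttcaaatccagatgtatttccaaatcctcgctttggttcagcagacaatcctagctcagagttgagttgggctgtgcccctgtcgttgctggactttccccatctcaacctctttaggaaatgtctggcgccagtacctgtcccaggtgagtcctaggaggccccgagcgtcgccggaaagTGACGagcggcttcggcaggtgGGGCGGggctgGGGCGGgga
Kif17 (chr4:138262001-138262250, plus strand): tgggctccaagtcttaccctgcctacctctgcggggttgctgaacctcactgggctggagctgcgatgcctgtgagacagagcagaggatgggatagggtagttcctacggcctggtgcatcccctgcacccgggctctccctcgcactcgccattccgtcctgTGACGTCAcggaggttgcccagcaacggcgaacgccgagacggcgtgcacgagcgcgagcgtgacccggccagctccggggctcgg
Prss23 (chr7:89517587-89517836, minus strand): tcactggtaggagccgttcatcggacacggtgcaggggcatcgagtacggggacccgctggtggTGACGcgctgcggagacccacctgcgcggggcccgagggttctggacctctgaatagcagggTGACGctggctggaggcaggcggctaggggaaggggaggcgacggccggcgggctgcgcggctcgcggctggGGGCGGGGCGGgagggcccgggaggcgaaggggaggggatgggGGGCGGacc
The GC box letters GGGCGG were found before 4 of the 6 starts (Trnp1, Serinc2, Bok and Prss23), against 32.7% of the 32851 promoters of the table. The core of the cyclic AMP response element, TGACG, was found before 4 of the 6 (Trnp1, Serinc2, Kif17 and Prss23), against 17.8% of all promoters. Before Kif17, TGACG stands on both strands of an overlapping stretch. The AP-1 letters TGANTCA were found before Mylk only, against 6.75% of all promoters, and the TATA box (12.4% of all, searched as TATAAA) was found before none of the 6. The E-box, searched as CACGTG, was found before none of the 6 either (6.02% of all). These matches describe the letters of a window and say nothing of the binding of a factor.

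In the basal GABA-CB1 line, every KO library was below every CB1-WT library for each of the 8 genes, in the comparison by which they were chosen. Of all 15082 genes in that comparison, 0.471% had every KO library below every CB1-WT library, and 0.245% had a Benjamini-Hochberg adjusted p under 0.05 by edgeR's quasi-likelihood test. Of the 8, 7 were among the latter, a count that the choice of the genes fixes and that is no test of them. Lgals1 was just inside that limit with a log2 difference of -0.44 (SE 0.08), and Mylk just outside it with -0.35 (SE 0.07). The largest difference was that of Serinc2, which was between 7.16 and 9.08 CPM (median 8.08) in CB1-WT and between 3.71 and 6.15 CPM (median 4.74) in KO, a log2 difference of -0.74 (SE 0.11). Bok was between 44.3 and 58.1 CPM (median 51.2) in CB1-WT and between 31.4 and 39.1 CPM (median 35.3) in KO, a log2 difference of -0.52 (SE 0.07). Trnp1 was between 99.5 and 115 CPM (median 111) in CB1-WT and between 84.7 and 91.6 CPM (median 88.8) in KO, a log2 difference of -0.31 (SE 0.03). The group ranges of these 3 genes did not touch.

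Among the other 5, Prss23 was between 19.9 and 25.99 CPM in basal CB1-WT and between 17.2 and 19.3 CPM in KO, a log2 difference of -0.39 (SE 0.06). Lgals1 was between 8.82 and 10.6 CPM in CB1-WT and between 5.67 and 8.32 CPM in KO. Mylk was between 30.2 and 42.2 CPM in CB1-WT and between 24.03 and 28.5 CPM in KO. Kif17 and Sh2d5 are the neighbours on chromosome 4. Kif17 was between 25.2 and 26.3 CPM in CB1-WT and between 19.8 and 22.5 CPM in KO (log2 difference -0.28, SE 0.04), and Sh2d5 was between 67.0 and 71.2 CPM in CB1-WT and between 59.9 and 65.5 CPM in KO (log2 difference -0.16, SE 0.03). For all 8 genes, GABA-CB1-KO basal had the lowest mean of the 8 groups. Animal numbers in the labels fall into a lower and a higher range in this line. Since every KO library was below every CB1-WT library, all 8 had to be lower in KO within both ranges. The median log2 difference was -0.29 in the lower range (4 CB1-WT, 2 KO) and -0.47 in the higher range (2 CB1-WT, 4 KO).

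**Figure D1:**
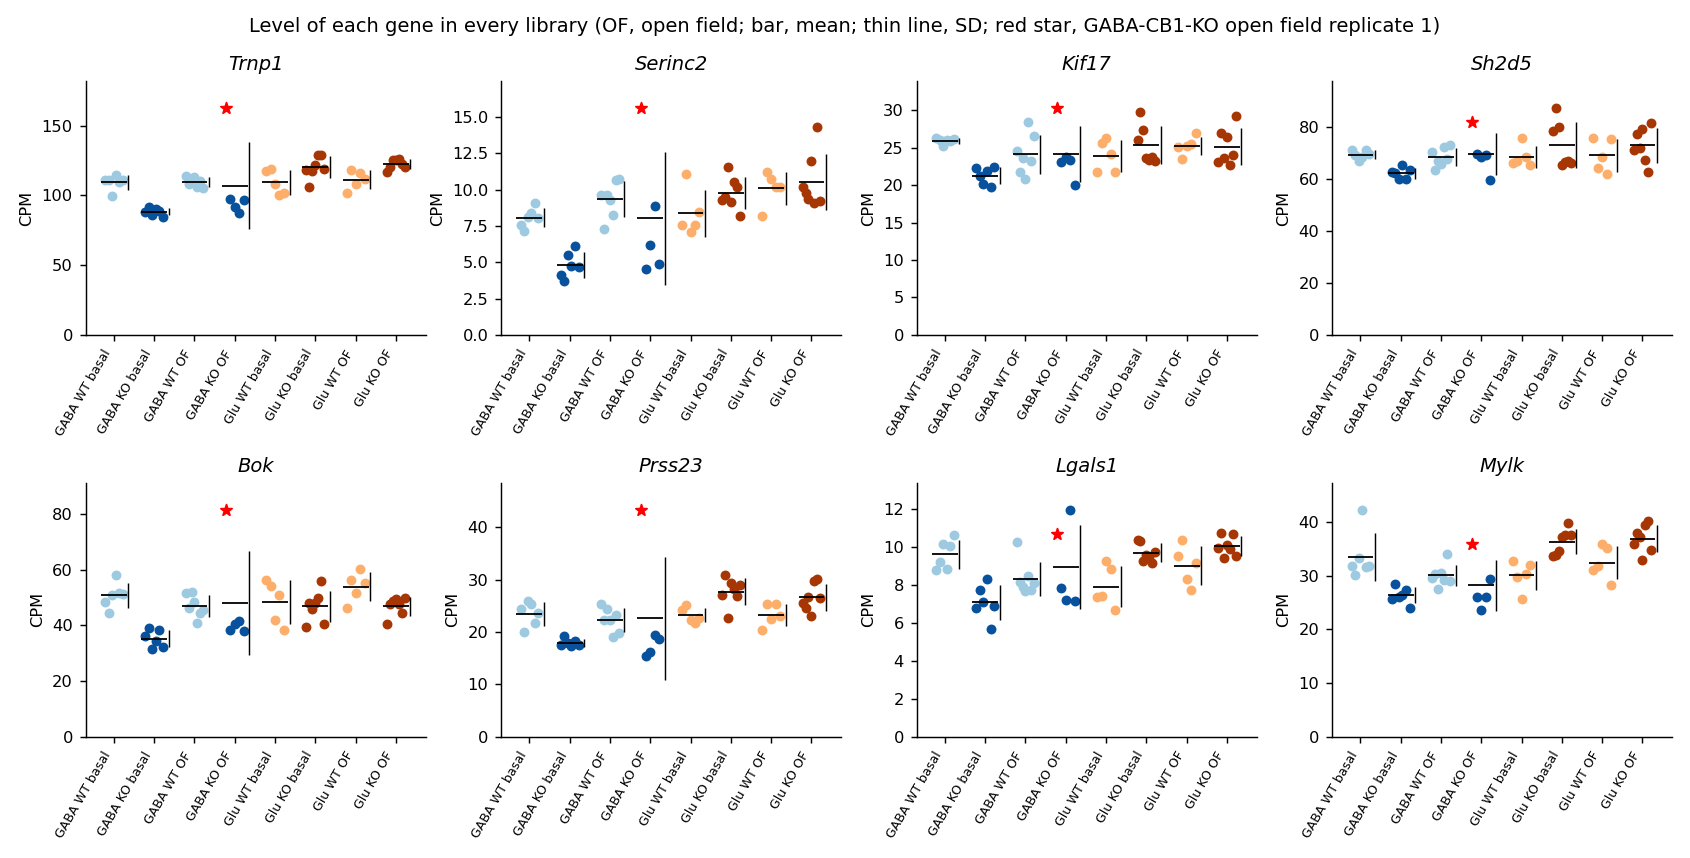
Level of each gene in CPM (y axis, linear, from 0) in every library of the 8 groups (x axis; OF, open field), with the group mean as a bar, the SD as a thin line and GABA-CB1-KO open field replicate 1 as a red star. Basal GABA-CB1-KO libraries lie below all basal GABA-CB1-WT libraries in each panel, and the red star is the highest of the 48 points for Trnp1 (163 CPM), Serinc2 (15.6 CPM), Kif17 (30.3 CPM), Bok (81.6 CPM) and Prss23 (43.3 CPM).

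After the open field, none of the 8 genes differed between GABA-CB1-KO and CB1-WT past the threshold by the quasi-likelihood test of edgeR, with Benjamini-Hochberg adjustment over 15097 genes. None had an unadjusted p under 0.05. DESeq2 called none of the 6 to which it gave an adjusted p, and gave none to Serinc2 and Lgals1. Of all genes, 3 (0.0199%) were called, and 2000 had an unadjusted p under 0.05. Trnp1 was between 106 and 114 CPM (median 110) in the 7 CB1-WT libraries, and 163, 97.4, 91.4, 87.3 and 97.0 CPM in the 5 KO libraries. Replicate 1 lay above all CB1-WT libraries and the other 4 KO libraries lay below all of them. The log2 difference over all 5 was -0.04 (95% interval -0.28 to 0.20, edgeR adjusted p = 0.908).

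Prss23 was between 19.0 and 25.3 CPM (median 22.3) in CB1-WT and 43.3, 15.3, 16.2, 19.4 and 18.6 CPM in KO (log2 difference 0.01, SE 0.21). Bok was between 40.7 and 52.2 CPM (median 46.4) in CB1-WT and 81.6, 38.5, 40.7, 41.7 and 37.9 CPM in KO (log2 difference 0.03, SE 0.16). Serinc2 was between 7.29 and 10.7 CPM (median 9.61) in CB1-WT and 15.6, 4.53, 6.18, 8.85 and 4.91 CPM in KO (log2 difference -0.23, SE 0.25). In each of these 3 genes, 3 of the 5 KO libraries lay below the lowest CB1-WT library, 4 of the 5 below the CB1-WT median, and replicate 1 above the highest.

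Mylk was between 27.6 and 34.1 CPM (median 29.5) in CB1-WT and 35.9, 26.03, 23.7, 26.03 and 29.3 CPM in KO (log2 difference -0.09, SE 0.09). Kif17 was between 20.8 and 28.4 CPM (median 23.6) in CB1-WT and 30.3, 23.1, 23.8, 23.4 and 20.1 CPM in KO, and Sh2d5 between 63.4 and 73.0 CPM (median 67.6) in CB1-WT and 81.8, 69.5, 68.4, 69.2 and 59.5 CPM in KO. The groups of this neighbouring pair overlapped widely, and 1 of 5 KO libraries lay below the lowest CB1-WT library for each. Lgals1 was between 7.71 and 10.3 CPM (median 8.10) in CB1-WT and 10.7, 7.83, 7.19, 12.0 and 7.15 CPM in KO. Its 2 high KO libraries were replicates 1 and 4, and replicate 4 was the highest of the 48 libraries for Lgals1. For none of the 8 genes was every KO library below every CB1-WT library, a pattern that 0.371% of all tested genes had.

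GABA-CB1-KO open field replicate 1 was singled out by the levels of these 8 genes, so the calls without it are a description and no independent test. Without this library, 1 of the 8 genes was called by edgeR's quasi-likelihood test, against 11 of 15154 genes tested (0.0726%). This was Trnp1, a chromatin-associated regulator of progenitors, with a log2 difference of -0.24 (SE 0.04, edgeR adjusted p = 0.0402). With replicate 4 left out as well, which left 3 KO libraries, the value was -0.21 and the edgeR adjusted p 0.121, past the threshold no longer. Without replicate 1 alone, Trnp1 was also the only 1 of the 8 with every remaining KO library below every CB1-WT library, as were 0.825% of all genes. DESeq2 called 4 of the 8 without replicate 1 (Trnp1, Serinc2, Bok and Prss23), against 1.16% of all genes. By edgeR, Serinc2 had a log2 difference of -0.62 (SE 0.16), Prss23 of -0.36 (SE 0.09), Bok of -0.25 (SE 0.06) and Mylk of -0.20 (SE 0.06), with edgeR adjusted p-values of 0.185, 0.146, 0.181 and 0.275. The 95% intervals of Kif17 (-0.25 to 0.06), Sh2d5 (-0.14 to 0.06) and Lgals1 (-0.23 to 0.29) included 0. The median over the 8 genes was -0.22, against -0.000142 over all genes tested.

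Within the lower range of animal numbers, to which replicate 1 belongs, the median log2 difference over the 8 genes was 0.03 with it (4 CB1-WT, 3 KO) and -0.21 without it. Within the higher range (3 CB1-WT, 2 KO) it was -0.21, with 7 of 8 genes lower, Trnp1 at -0.28, Serinc2 at -0.57 and Lgals1 at 0.25. No test was run within a single range, and a fit with the range as a factor called none of the 8 with all libraries.

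**Figure D2:**
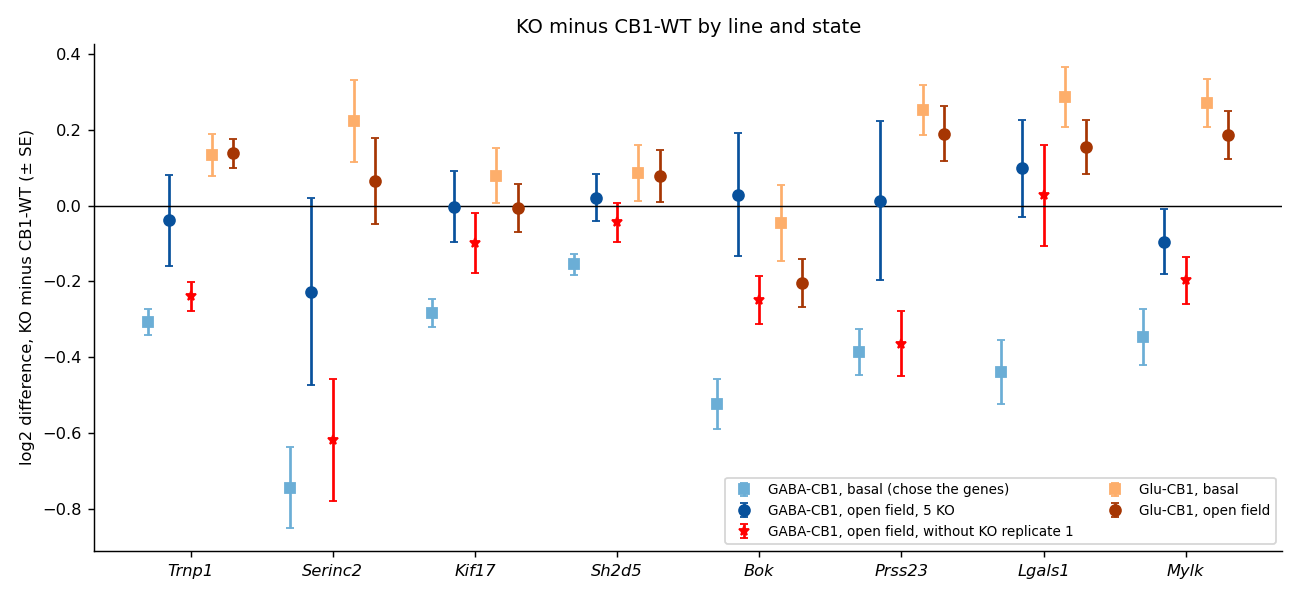
Log2 difference of KO minus CB1-WT (y axis, ± SE) for each gene (x axis) in both states of both lines, and for the GABA-CB1 line after the open field also with KO replicate 1 left out (red stars). The basal GABA-CB1 differences, by which the genes were chosen, run from -0.74 to -0.16, and those of the Glu-CB1 line from -0.20 to 0.29.

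Replicate 1 differed from the other 47 libraries in further genes, named here after their values were seen. Gfap, an intermediate filament of astrocytes, was at 640 CPM there and between 224 and 366 CPM elsewhere, and Scube1, a secreted cell surface protein, at 125 CPM against 36.7 to 63.8 CPM. The sterol synthesis genes Sqle (106 CPM against 55.9 to 82.2) and Nsdhl (39.8 CPM against 20.4 to 30.1) were also highest there. Tek, an endothelial receptor, was lowest, at 7.49 CPM against 12.1 to 19.0 CPM, as were Cxcl12 (32.2 CPM against 51.0 to 75.5) and the summed 11 endothelial markers (164 CPM against 166 to 297 CPM). The summed 10 markers of subiculum and cortex were lowest there too (181 CPM against 207 to 337 CPM). The 13 markers of CA2 and CA3 summed to 1555 CPM, the second highest of 48, a list that names Bok among its markers and was summed without it. Replicate 4, where Lgals1 was highest, had 4139 CPM over 10 choroid plexus markers, against at most 1542 CPM elsewhere, and 971 CPM over 11 fibroblast and meningeal markers, against at most 673 CPM. The part of these tissues and genes in the levels of the 8 genes was not tested.

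In the Glu-CB1 line after the open field, none of the 8 genes passed the Benjamini-Hochberg adjusted test of edgeR, while 41 of 15078 genes did (0.272%). At an unadjusted p under 0.05 there were 5 of the 8 and 1051 of all genes, and DESeq2 called none of the 8. Trnp1 was at 102, 119, 108, 116 and 112 CPM in CB1-WT and between 117 and 126 CPM (median 122) in KO, a log2 difference of 0.14 (SE 0.04, edgeR adjusted p = 0.257). Mylk was at 31.03, 31.8, 35.8, 35.1 and 28.2 CPM in CB1-WT and between 32.99 and 40.1 CPM (median 37.1) in KO, a log2 difference of 0.19 (SE 0.06, edgeR adjusted p = 0.420). All 7 KO libraries of both genes lay above the CB1-WT median, and the ranges overlapped.

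Prss23 was at 20.4, 25.3, 22.4, 25.3 and 23.1 CPM in CB1-WT and between 23.1 and 30.0 CPM (median 26.4) in KO (log2 difference 0.19, SE 0.07). Lgals1 was at 9.56, 10.4, 8.34, 7.73 and 9.18 CPM in CB1-WT and between 9.44 and 10.8 CPM (median 9.95) in KO (log2 difference 0.16, SE 0.07). Bok stood on the other side of 0. It was at 46.3, 56.4, 51.8, 60.4 and 55.2 CPM in CB1-WT and between 40.4 and 49.8 CPM (median 47.6) in KO, with all 7 KO libraries below the CB1-WT median and a log2 difference of -0.20 (SE 0.06, edgeR adjusted p = 0.358). Serinc2 (0.06, SE 0.11), Sh2d5 (0.08, SE 0.07) and Kif17 (-0.01, SE 0.06) differed by little more than their SE or less. No gene of the 8 had every KO library above every CB1-WT library, as 0.431% of all tested genes did.

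In the basal Glu-CB1 line, 7 of the 8 genes had a positive log2 difference and Bok one of -0.05 (SE 0.10). The largest were those of Lgals1 at 0.29 (SE 0.08), Mylk at 0.27 (SE 0.06) and Prss23 at 0.25 (SE 0.07). Mylk was at 32.7, 29.7, 25.6, 30.4 and 31.96 CPM in basal Glu-CB1-WT and between 33.6 and 39.8 CPM in KO, so that every KO library was above every CB1-WT library, as in 0.0991% of genes. Since the line difference entered the choice of the genes, these values are a description too. Over all 15138 genes of this comparison, 3 (0.0198%) were called by edgeR.

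The KO effect after the open field was compared between the lines in 1 fit over 24 libraries, coded as GABA-CB1 minus Glu-CB1. None of the 8 genes was called by edgeR's quasi-likelihood test, against 87 of 15325 genes (0.568%), 1 of the 8 had an unadjusted p under 0.05 among 1652 genes, and DESeq2 called none of the 8. That 1 was Mylk, with -0.28 (SE 0.11, edgeR adjusted p = 0.323). Without GABA-CB1-KO open field replicate 1, an omission prompted by the levels of these genes, 2 of the 8 were called, against 0.618% of all genes. Trnp1 differed by -0.37 (SE 0.05, edgeR adjusted p = 5.85e-04) and Prss23 by -0.55 (SE 0.12, edgeR adjusted p = 0.0244), both with a negative KO difference in the GABA-CB1 line and a positive one in the Glu-CB1 line. With replicate 4 left out as well, Serinc2 was called beside both (-0.92, edgeR adjusted p = 0.0226). DESeq2 called 3 of the 8 without replicate 1 alone (Trnp1, Prss23 and Mylk), against 1.53% of all genes. Bok, with log2 differences of -0.25 and -0.20 in the lines without replicate 1, differed between them by -0.04 (95% interval -0.23 to 0.14), and with it by 0.23 (95% interval -0.13 to 0.59).

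The CB1-WT mice of the lines did not differ in any of the 8 genes after the open field past the threshold of edgeR's quasi-likelihood test. None had an unadjusted p under 0.05, 748 of all 15325 genes did, 0 (0.0%) of all genes were called by edgeR and 3 by DESeq2, none of them among the 8. All 8 log2 differences (GABA-CB1-WT minus Glu-CB1-WT) were negative, from -0.20 for Bok to -0.01 for Sh2d5, with SEs of 0.07 to 0.20. In the basal state 7 of the 8 were positive, the largest being that of Lgals1 at 0.27 (SE 0.09). Library and animal numbers in the labels do not overlap between the lines, so a batch that follows them cannot be told apart from line.

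Open field levels were set beside basal levels as a description, since the basal libraries chose the genes. Library numbers in the labels run in blocks by state within each line, so a batch that follows them cannot be told apart from state. In GABA-CB1-KO all 8 log2 differences (open field minus basal) were positive, from 0.10 for Mylk to 0.73 for Serinc2, with SEs of 0.05 to 0.22. Without replicate 1, Serinc2 had a mean of 6.12 CPM (SD 1.95, n = 4) after the open field and 4.83 CPM (SD 0.89, n = 6) in the basal state, Trnp1 93.3 CPM (SD 4.86) and 88.4 CPM (SD 2.69), and Prss23 17.4 CPM (SD 1.91) and 17.95 CPM (SD 0.75). Lgals1 stood at 8.53 CPM (SD 2.31) and 7.08 CPM (SD 0.91), and Kif17 at 22.6 CPM (SD 1.72) and 21.3 CPM (SD 1.13). Bok stood at 39.7 CPM (SD 1.81) and 35.3 CPM (SD 3.15), Sh2d5 at 66.7 CPM (SD 4.79) and 62.3 CPM (SD 2.12), and Mylk at 26.3 CPM (SD 2.31) and 26.3 CPM (SD 1.50). The means of Bok differed by more than the larger SD of the pair, those of Trnp1 by about the larger SD, and those of the other 6 by less. In GABA-CB1-WT, 6 of 8 log2 differences were negative, from -0.20 for Lgals1 to 0.22 for Serinc2, and in Glu-CB1-KO they ran from -0.06 to 0.11. In Glu-CB1-WT all 8 were positive as well, from 0.00 for Prss23 to 0.27 for Serinc2.

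The pathways around the 8 genes were described by 8 lists, counted without the 8 genes themselves. They held kinesin motors and Kif17 cargo, the BCL2 family and IP3 receptors, galectins, the SERINC family and serine synthesis, the myosin light chain kinase pathway, secreted serine proteases and their inhibitors, SH2D adaptors with BCR and Rac signalling, and TMF1 with the BAF complex. In the GABA-CB1 line after the open field, none of 142 list genes was called by edgeR with or without replicate 1 (1 and 0 by DESeq2). At an unadjusted p under 0.05 there were 28 with it (19.7%, against 13.2% of all genes) and 21 without it (14.8%, against 12.7%). In the Glu-CB1 line after the open field, edgeR called 1 of 142 (lower) beside 0.272% of all genes. In the basal GABA-CB1 line it called 1 of 142 (lower) beside 0.245%. Both edgeR calls were Klk8, neuropsin, a secreted serine protease of the hippocampus in the list of Prss23. DESeq2 called 2 in each of these comparisons, 1 of them in the myosin light chain kinase list, beside 0.816% and 0.745% of all genes. At an unadjusted p under 0.05 there were 13 (9.15%, against 6.97% of all genes) and 11 (7.75%, against 8.16%). Klk8 had a log2 difference of -0.31 (SE 0.05, edgeR adjusted p = 0.00643) in the Glu-CB1 line after the open field and of -0.49 (SE 0.06, edgeR adjusted p = 0.00269) in the basal GABA-CB1 line. In the basal Glu-CB1 line 0 of 141 were called by edgeR (5 at an unadjusted p under 0.05, 0 by DESeq2).

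Among the relatives of Serinc2 and Lgals1, 5 had a mean of more than 1 CPM per kilobase. Lgalsl and Lgals3bp of the galectin list are not counted among these relatives. Serinc1, the most abundant SERINC gene at 456 CPM per kilobase, had a basal GABA-CB1 log2 difference of 0.00, Serinc3 (87.7 CPM per kilobase) of 0.04 and Serinc5 (18.6 CPM per kilobase) of 0.13, against -0.74 for Serinc2. Lgals8, at 10.1 CPM per kilobase nearly as abundant as Lgals1, had 0.01 and Lgals9 -0.09, against -0.44 for Lgals1. Serinc2 and Lgals1 were chosen by basal values, so their distance from these relatives follows from the choice and is no test. The rarer tested relatives had basal GABA-CB1 log2 differences of 0.44 (Serinc4), 0.27 (Lgals12), -0.16 (Lgals4) and -0.02 (Lgals3), each at less than 0.5 CPM per kilobase. None of these 9 relatives was called by edgeR in the GABA-CB1 or the Glu-CB1 line in either state. The median over the 23 tested kinesin and cargo genes was 0.01 in the basal GABA-CB1 line, and over the 20 tested BCL2 family and IP3 receptor genes 0.01, beside -0.000539 over all genes.

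Cell type markers were summed per library beside these results, and their part in the results was not tested. In the basal GABA-CB1 line, the ranges of KO and CB1-WT overlapped for all 13 marker lists, among them 10 CA1 pyramidal markers (1203 to 1540 CPM in KO and 1120 to 1471 CPM in CB1-WT), 17 interneuron markers (1294 to 1379 and 1297 to 1446 CPM), 12 smooth muscle and pericyte markers (171 to 206 and 181 to 220 CPM), 11 endothelial markers (215 to 248 and 227 to 273 CPM) and 11 fibroblast and meningeal markers (315 to 465 and 324 to 673 CPM). Single markers of some lists were mostly lower in basal GABA-CB1-KO, as the 8 genes were. This held for 9 of 9 tested choroid plexus markers (median log2 difference -0.86, 5 at an unadjusted p under 0.05), 10 of 10 microglia markers (median -0.08, 2 unadjusted), 10 of 11 endothelial markers (median -0.07, 1 unadjusted), 9 of 10 astrocyte markers (median -0.04, 1 unadjusted) and 9 of 10 dentate markers (median -0.18, 0 unadjusted), and none of these was called by edgeR or DESeq2. All 10 oligodendrocyte markers had positive differences (median 0.15, 1 unadjusted). Of 17 interneuron markers, 10 were lower in basal GABA-CB1-KO (median -0.02), with 5 at an unadjusted p under 0.05. Of 13 CA2 and CA3 markers, 7 were lower (median -0.01, 3 unadjusted). For comparison, 8.16% of all genes had an unadjusted p under 0.05. The choroid plexus sum was 1542 CPM in CB1-WT replicate 3 and between 60.8 and 117 CPM in the other 5 CB1-WT libraries, against 55.6 to 98.0 CPM in KO. After the open field, 1 of 13 CA2 and CA3 markers was lower in GABA-CB1-KO with all libraries (median 0.19) and 5 of 13 without replicate 1 (median 0.03). Of 7 blood markers, 4 were at 0 in every library. No marker other than Npy and Iyd was called by edgeR in a KO comparison. DESeq2 called markers of the interneuron list and of the CA2 and CA3 list only. Of 17 interneuron markers it called 1 in the basal GABA-CB1 line and 1 in the basal Glu-CB1 line. Among open field libraries it called 2 in the GABA-CB1 line, with or without replicate 1, and 3 in the Glu-CB1 line. Of 13 CA2 and CA3 markers it called 2 in each of these open field comparisons and 0 in the basal ones. In the Glu-CB1 line after the open field, the interneuron neuropeptide Npy was higher (log2 difference 0.55, SE 0.09, edgeR adjusted p = 0.0185) and the CA2 and CA3 marker Iyd lower (-0.56, SE 0.11, edgeR adjusted p = 0.0463).

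On chromosome 4, 119 other genes between Serinc2 and Kif17 were tested in the basal GABA-CB1 line. None was called by edgeR or by DESeq2, and 8 (6.72%) had an unadjusted p under 0.05, against 8.16% of all genes. Their log2 differences had a median of -0.02, and 90% of them lay between -0.22 and 0.10. The chosen genes were selected by basal values, so their low place among these neighbours follows from the choice. Below the value of Kif17 (-0.28) lay 1 of the 119 other genes, and below that of Sh2d5 (-0.16) lay 9. After the open field, 0 of 118 were called by edgeR and 2 by DESeq2 (1.59% of all genes it tested), and 26 (22.03%) had an unadjusted p under 0.05, against 13.2% of all genes. Without replicate 1, 0 of 119 were called by edgeR and 2 by DESeq2, and 20 (16.8%) had an unadjusted p under 0.05, against 12.7% of all genes. In the Glu-CB1 line, 0 of 120 were called by edgeR in the basal state (4 unadjusted, 3.33% against 3.57% of all genes, and 0 by DESeq2) and 0 of 119 after the open field (6 unadjusted, 5.04% against 6.97% of all genes, and 0 by DESeq2). Windows of 1 Mb to each side of a gene reach past the interval between Serinc2 and Kif17. In the basal GABA-CB1 line, DESeq2 called 1 of 33 other tested genes around Serinc2 and 1 of 27 around Kif17. These were Hcrtr1 (edgeR log2 difference -0.70, SE 0.16) and Nbl1 (-0.20, SE 0.04), neither called by edgeR. The windows of Trnp1, Bok, Prss23, Lgals1 and Mylk held 0 DESeq2 calls. Around Cnr1, the 17 tested genes held 0 edgeR calls and 1 by DESeq2, against 0.745% of all genes. There, 2 had an unadjusted p under 0.05, against 8.16% of all genes.

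**Figure D3:**
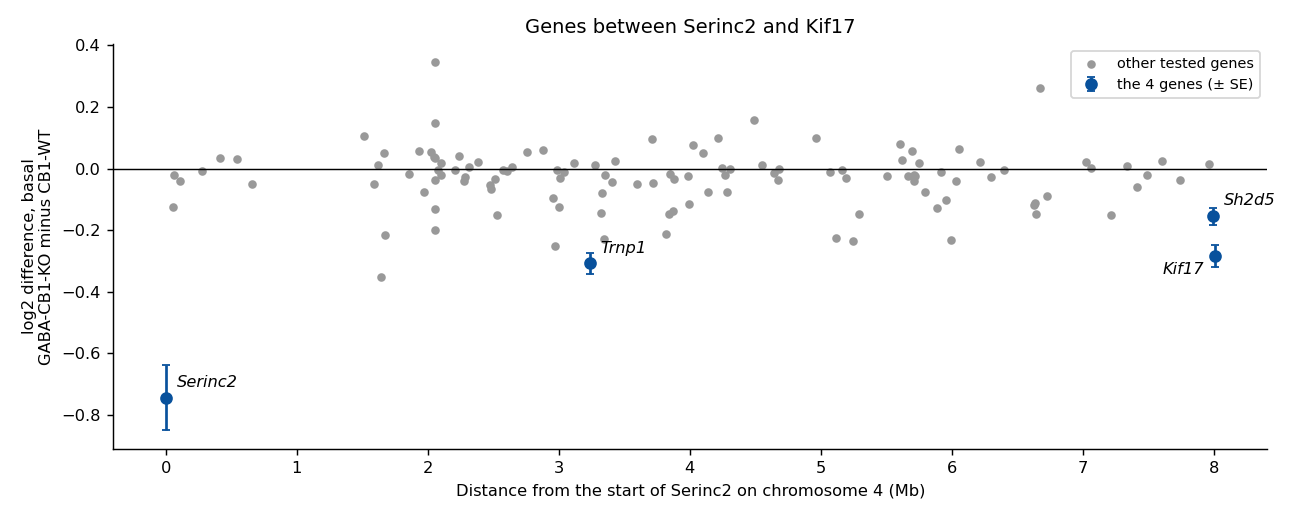
Basal log2 difference of GABA-CB1-KO minus CB1-WT (y axis) for genes by distance from the start coordinate of Serinc2, the lower end of its span, in Mb (x axis), with the 4 chosen genes in blue (± SE) and 119 other tested genes in grey. Serinc2 (-0.74), Trnp1 (-0.31), Kif17 (-0.28) and Sh2d5 (-0.16), which were chosen by basal values, lie below 0. The other genes spread around a median of -0.02.

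The 28 pairs of the 8 genes were correlated over log2 CPM centred on the group means, as a description of how the genes vary between mice of a group. Over the 24 basal libraries Pearson's r ran from -0.55 to 0.87 with a median of -0.04, and 12 of 28 pairs were positive. Kif17 and Sh2d5, the chromosomal neighbours, had the highest value, 0.87, and Sh2d5 was the gene most like Kif17 of all in the basal libraries. Over the 24 open field libraries the median was 0.46 with 27 of 28 pairs positive, and without GABA-CB1-KO open field replicate 1 it was 0.06 with 16 of 28 positive. The high open field values therefore rested on that 1 library for most pairs. Trnp1 and Bok had 0.92 with it and 0.58 without it, and Trnp1 and Prss23 0.90 and 0.42, while Kif17 and Sh2d5 kept 0.80 and 0.73. Each point is a library, and the values of a pair share that library's depth and dissection.

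**Figure D4:**
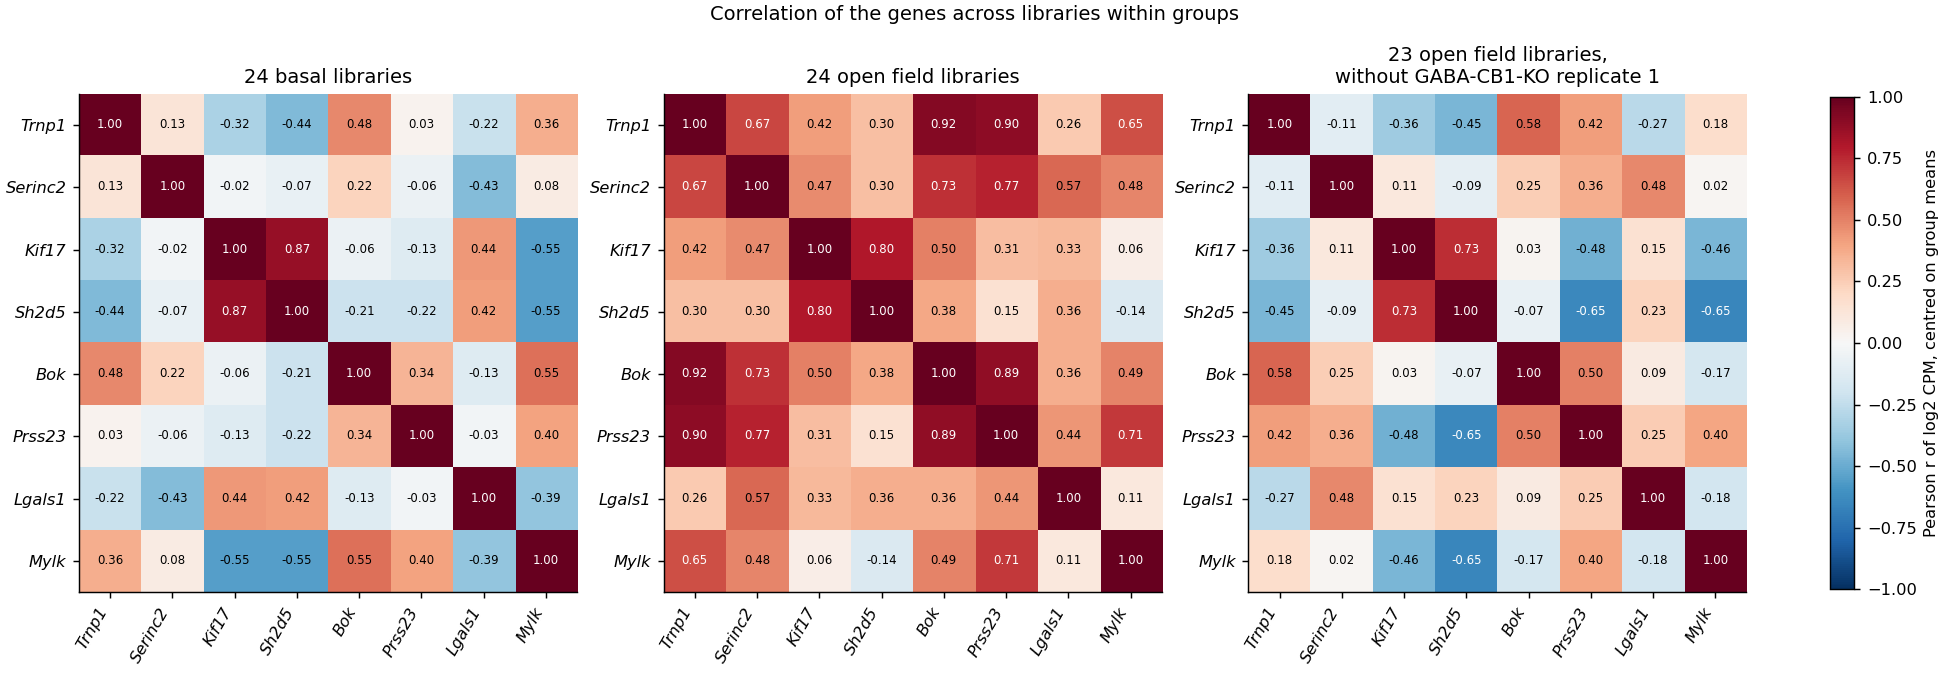
Pearson's r between the 8 genes (both axes; colour and printed value) of log2 CPM centred on group means, over 24 basal libraries, 24 open field libraries and the 23 open field libraries without GABA-CB1-KO replicate 1. The block of high values in the middle panel, such as 0.92 for Trnp1 and Bok, falls to 0.58 in the right panel, and Kif17 with Sh2d5 stays at 0.73.

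Among all genes with a mean of at least 1 CPM, the 3 most like each of the 8 over the 24 open field libraries were named by Pearson's r. For Trnp1 they were Uchl1 (0.93), Svop (0.92) and Bok (0.92), and for Bok Homer3 (0.93), Trnp1 and Scube1 (0.92). Without replicate 1, Trnp1 with Uchl1 had 0.66 and with Svop 0.34, and Bok with Homer3 0.81. Over the 24 basal libraries, Trnp1 with Uchl1 had 0.73 and Bok with Homer3 0.80, while Bok with Scube1 had 0.06. For Prss23 they were Scube1 (0.92), Trnp1 and Trib2 (0.89), for Serinc2 Fbxo10 (0.84), Itpk1 (0.83) and Pgpep1 (0.83), and for Mylk Chgb (0.76), Ehd3 (0.75) and Trak2 (0.74). Without replicate 1 the values ran from 0.42 to 0.63 for Prss23, from 0.56 to 0.71 for Serinc2 and from 0.50 to 0.56 for Mylk. Over the basal libraries they ran from -0.07 to 0.21 for Prss23, from -0.05 to 0.07 for Serinc2 and from 0.42 to 0.71 for Mylk. Uchl1, Scube1, Trib2, Pgpep1 and Trak2 were among the genes that stood highest in replicate 1. For Kif17 they were Zfand2b (0.82), Lmna (0.80) and Sh2d5 (0.80), for Sh2d5 Trmu (0.89), Mpg (0.88) and Tbrg4 (0.88), and for Lgals1 Nxn (0.86), Pcolce (0.79) and Sod3 (0.78). Without replicate 1 the values of these 3 genes ran from 0.71, for Kif17 with Lmna, to 0.91, for Sh2d5 with Trmu and with Tbrg4. In the basal libraries the values for Lgals1 were between -0.16 and 0.15.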

How the data were processed

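RNA of microdissected Cornu Ammonis was amplified with NuGEN's Ovation RNA-seq system v2, which does not keep the strand. Per the labels, reads were checked with FastQC and MultiQC 1.8, aligned to mm10 with STAR 2.6.0a and counted per gene with featureCounts 1.6.2, and per the study's methods with a setting for reversely stranded reads (setting 2), so part of the reads can be lost or fall on antisense genes. The authors deposited raw counts of reads per gene, whole numbers without normalization, with exon coordinates and gene lengths. No count column was left unused, and 3596 genes had no count.

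Groups were taken from the labels. KO and CB1-WT were compared with the quasi-likelihood functions of edgeR 4.0.16 in R 4.3.3, with TMM scaling and filterByExpr, on the 12 libraries of a line and state, or the 24 of a state for differences between lines, with Benjamini-Hochberg adjustment over all genes tested. Standard errors were derived from the F statistic, and the 95% intervals are 1.96 SE to each side. DESeq2 1.42.0, other scaling and filters, 1 fit of all 48 libraries, the range of animal numbers as a factor, a replicate block and the omission of each library were run as alternatives. The fits were tested on simulated data. Levels are CPM over all 48 libraries and log2 CPM has a prior count of 2. Counts of all 123 pairs of libraries in a group differed by more than sampling noise (lowest chi-square per degree of freedom 3.17). Same-numbered KO and CB1-WT open field libraries did not deviate together (correlations from -0.37 to 0.12), so the numbers were not taken as pairs.

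The members, the gene lists and the tests were chosen with earlier results of these data known. Named beside the 8 genes are list or neighbouring genes called by edgeR in a KO comparison, at most 5 per list or interval. The 3 genes most like each are named too. Outside this rule, the text names Cnr1, Hcrtr1 and Nbl1, and the relatives of Serinc2 and Lgals1. It also names genes that stood apart in replicate 1, picked after their values were seen. Python 3.11.15 with pandas 2.3.3, numpy 2.4.6, scipy 1.17.1 and matplotlib 3.10.9 made the descriptions and plots.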

Additional observations from a re-analysis of the deposited data

Results flagged for a closer look

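In 64 combinations of the 8 genes and 8 groups, the highest or lowest library was compared with the nearest other by Dixon's criterion at 95%, which chance alone meets in about 1 in 20 groups, and 8 combinations met it. The 3 in GABA-CB1-KO open field came from the same library, replicate 1, which stood at 162.6 CPM for Trnp1 (others 87.3 to 97.4), 81.6 CPM for Bok (others 37.9 to 41.7) and 43.3 CPM for Prss23 (others 15.3 to 19.4). In GABA-CB1-WT basal, replicate 3 was low for Trnp1 at 99.5 CPM (others 109 to 115) and for Kif17 at 25.2 CPM (others 25.9 to 26.3), and replicate 4 was high for Mylk at 42.2 CPM (others 30.2 to 33.2). Sh2d5 was at 75.8 CPM in Glu-CB1-WT basal replicate 3 (others 65.6 to 68.4), and Lgals1 at 10.3 CPM in GABA-CB1-WT open field replicate 1 (others 7.71 to 8.47). The part of tissue or library preparation in these values was not tested.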

How the results depend on the processing

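Of the 8 genes, 0 were called in each of the 4 open field tests with DESeq2 (no adjusted p for Serinc2 and Lgals1 in the GABA-CB1 line), RLE size factors, a filter of only 1 count, a minimum of 10 counts per library, 1 fit of all 48 libraries, the range of animal numbers as a factor, robust dispersions (chosen after seeing the data) and the replicate block. With the replicate block 0 of the 8 genes were called, and the count over all genes went from 3 to 1 in the GABA-CB1 line, from 41 to 3 in the Glu-CB1 line and from 87 to 54 for the line difference. Leaving out each library in turn gave 0 to 1 of the 8 in the GABA-CB1 line, 0 to 2 for the line difference, and 0 to 0 in the other tests, and every count above 0 came from leaving out GABA-CB1-KO open field replicate 1. With replicates 1 and 4 of that group left out together, an alternative chosen after seeing the data, 0 of the 8 were called in the GABA-CB1 line (5 at an unadjusted p under 0.05) and 3 for the line difference (Trnp1, Serinc2 and Prss23), so the call of Trnp1 in the GABA-CB1 line rests on replicate 4 being kept (log2 difference -0.21, edgeR adjusted p = 0.121, with 3 KO libraries). Over all genes, DESeq2 called 152 in the GABA-CB1 line against 3 by edgeR, 123 against 41 in the Glu-CB1 line and 200 against 87 for the line difference, and the fit of 48 libraries called 106 in the GABA-CB1 line. No value of the 8 genes reversed a call. The lowest count of the 8 genes was 119, for Serinc2, and how much of each spread is counting error was not separated. No label names a batch. The running library numbers in the labels fall into blocks by line and state, and animal numbers do not overlap between the lines. A batch that follows these numbers cannot be told apart from line, or for library numbers from state. The study's methods describe sequencing pools made of libraries from all groups. The p-values set a difference against the spread between mice.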
